A study of Homo sapiens with 12 samples.

Results

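The 40 genes described here act in mitosis and at the spindle checkpoint, and their RNA was read in H9, a widely used human embryonic stem cell line. They were selected by name, and each was represented by the one of its probe sets with the highest mean over all arrays. They are 40 of the 19775 genes that had a probe set with a single gene name. All cells carried a doxycycline-inducible (Tet-on) construct for the orphan nuclear receptor GCNF (gene NR6A1), so the controls carried it too, and cells without the construct were not analysed here. The 12 oligonucleotide arrays fell into 4 groups of 3. The first group was labelled as cells kept 6 days in a medium with serum and 1 µg/ml doxycycline (Dox), the second as cells kept 6 days in the same medium with 1 µM retinoic acid (RA). The third held undifferentiated cells in stem cell medium that had 4 days of Dox at 1 µg/ml (d0 with Dox), and the fourth untreated undifferentiated cells (d0). Day 6 and day 0 thus differ in medium as well as in agent and time, and these cannot be told apart. The replicates are called biological, without word on whether their cultures were kept apart, so the p-values reflect only the spread among these arrays. The groups allow day 6 to be set against day 0, Dox against RA at day 6, and Dox against no Dox at day 0.

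Cells enter mitosis when cyclin B and the kinase CDK1 form an active complex, which CDC25 phosphatases release from inhibition. Kinetochores then tie the chromosomes to the spindle, and the spindle checkpoint, with BUB and MAD proteins and the kinase TTK, holds back the anaphase-promoting complex until every chromosome is attached. Transcripts of most of these genes build up towards mitosis and are low in resting cells. They are controlled largely by complexes on the MuvB core, which repress them in resting cells as DREAM and activate them with B-MYB and FOXM1 in dividing cells. Human embryonic stem cells in stem cell medium divide fast and are known for high levels of these transcripts.

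The targeted gene, in the probe sets that responded most to Dox, and CYP26 genes went against the day 6 labels. NR6A1 was read by 7 probe sets, of which 6 were higher in d0 with Dox than in d0, the brightest at 2869 ± 269.9 against 1457 ± 115 (mean intensity ± SD, n = 3 arrays in each group, as throughout). At day 6 the 3 probe sets that rose most with Dox at d0, by 3.46-fold to 15.5-fold, were lower in Dox-labelled than in RA-labelled arrays. The one with the largest rise averaged 29.2 in Dox-labelled and 336 in RA-labelled arrays, against 615 in d0 with Dox and 26.8 in d0. The 3 that rose by under 2-fold at d0 were higher in Dox-labelled arrays. CYP26A1, an RA-degrading enzyme that RA induces, stood at 29594 ± 1005 in Dox-labelled and 271 ± 37.0 in RA-labelled arrays, and CYP26B1, of the same family, at 5075 ± 346 in Dox-labelled and 46.6 ± 11.9 in RA-labelled arrays. The day 6 groups are therefore called Dox-labelled and RA-labelled throughout, and each direction between them rests on the labels. Median intensity per array was 64.2 to 78.0, replicate arrays correlated at r = 0.986 to 0.988, and with 3 arrays a group precision is limited by their number. The stem cell identity at day 0 was checked against 13 pluripotency markers, whose summed intensity was 140897 to 145022 in d0 with Dox and 164094 to 179959 in d0, against 27713 to 28729 in Dox-labelled and 27102 to 29069 in RA-labelled arrays.

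Many promoters of these genes hold the same short sequence elements. CHR elements (cell cycle genes homology regions), which MuvB complexes bind, were taken as the letters TTTGAA or TTCGAA, called CHR letters here. CCAAT boxes, which NF-Y binds, were taken as CCAAT. Other spellings of either element were not searched. On the other strand TTTGAA reads as TTCAAA and CCAAT as ATTGG. Both were searched on both strands in the RefSeq windows of build GRCh38.p14 from 250 bases before to 50 bases after each annotated start. Windows were matched for 33 of the 40 genes, all but AURKA, BIRC5, BUB3, FOXM1, TPX2, TTK and UBE2C. CHR letters stood in 24 of the 33 (72.7%), against 19.5% of all 27305 genes with a window. CCAAT letters stood in 26 of 33 (78.8%), against 39.7% of all genes, and both kinds in 20 of 33 (60.6%), against 7.85%. Per promoter, counting each listed start once, CHR letters were in 61.9% of 42 member promoters and 16.4% of 35116 in all. A match is a description of letters, not a measured binding site. The 200 bases before the start are shown for 7 genes, in lower case with CHR and CCAAT letters of either strand in capitals. CCNB2 (chr15:59104946-59105145, plus strand) and PLK1 (chr16:23678689-23678888, plus strand) have CHR letters close to the start and CCAAT letters before them. BUB1B (chr15:40160869-40161068, plus strand) and MKI67 (chr10:128126424-128126623, minus strand) are shown as the 2 genes with the largest falls from d0 to RA-labelled arrays, and TOP2A (chr17:40417897-40418096, minus strand) and KIF20A (chr5:138178912-138179111, plus strand) for their large differences between the day 6 groups. TOP2A has its CHR letters further from the start than the other genes shown, KIF20A had no CHR letters, and in MKI67 the CHR letters nearest the start overlap CCAAT letters of the other strand by 1 base. CDC25B (chr20:3796110-3796309, plus strand), the gene that changed least from day 0 to day 6, has 4 listed starts, and the one shown is the only one of them with CHR letters, spelled TTCGAA.
CCNB2: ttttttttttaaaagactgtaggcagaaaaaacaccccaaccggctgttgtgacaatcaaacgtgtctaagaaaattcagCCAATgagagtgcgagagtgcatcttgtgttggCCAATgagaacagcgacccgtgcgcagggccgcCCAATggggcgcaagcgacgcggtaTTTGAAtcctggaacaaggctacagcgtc
PLK1: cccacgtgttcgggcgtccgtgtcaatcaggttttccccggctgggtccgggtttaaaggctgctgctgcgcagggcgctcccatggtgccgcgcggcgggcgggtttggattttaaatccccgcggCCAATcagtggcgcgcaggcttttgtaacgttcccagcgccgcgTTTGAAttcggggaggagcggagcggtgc
BUB1B: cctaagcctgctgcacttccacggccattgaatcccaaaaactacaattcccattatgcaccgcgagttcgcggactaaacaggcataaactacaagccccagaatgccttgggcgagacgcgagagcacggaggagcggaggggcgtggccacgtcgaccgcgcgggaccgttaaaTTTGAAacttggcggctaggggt
MKI67: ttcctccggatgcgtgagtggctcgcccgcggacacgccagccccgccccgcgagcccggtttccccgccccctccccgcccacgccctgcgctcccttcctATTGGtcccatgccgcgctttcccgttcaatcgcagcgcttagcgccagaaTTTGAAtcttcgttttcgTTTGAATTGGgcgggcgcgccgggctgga
TOP2A: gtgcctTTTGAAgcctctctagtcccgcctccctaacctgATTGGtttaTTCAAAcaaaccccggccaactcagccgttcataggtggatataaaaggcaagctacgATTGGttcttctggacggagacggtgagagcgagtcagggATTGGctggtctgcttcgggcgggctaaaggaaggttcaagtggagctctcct
KIF20A: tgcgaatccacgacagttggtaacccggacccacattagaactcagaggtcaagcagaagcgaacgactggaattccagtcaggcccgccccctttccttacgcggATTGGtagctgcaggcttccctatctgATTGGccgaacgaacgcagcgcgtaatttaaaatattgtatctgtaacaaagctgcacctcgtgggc
CDC25B: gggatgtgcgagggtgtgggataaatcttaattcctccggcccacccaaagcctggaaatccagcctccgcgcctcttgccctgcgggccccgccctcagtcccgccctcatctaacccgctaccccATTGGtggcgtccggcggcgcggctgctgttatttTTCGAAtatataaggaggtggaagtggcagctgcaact

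**Figure D1:**
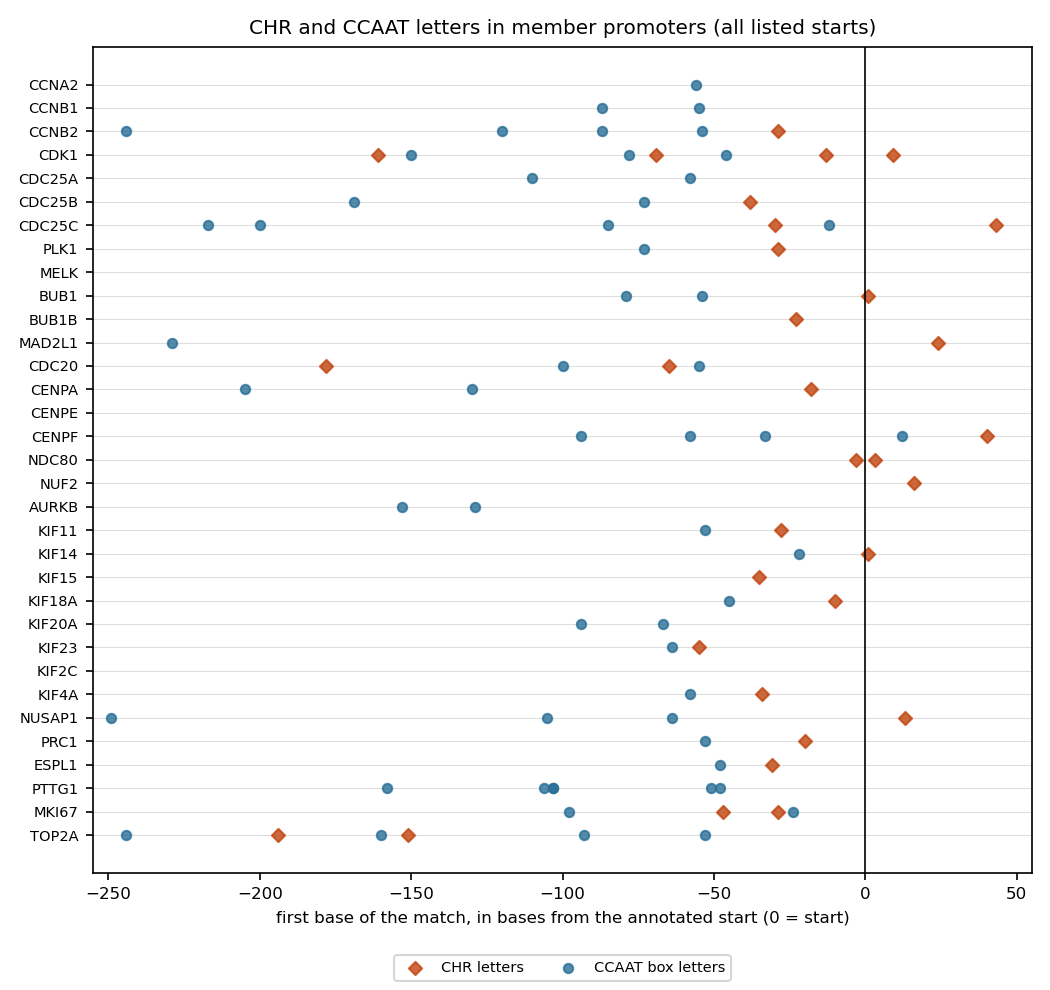
CHR letters (diamonds) and CCAAT letters (circles) by the first base of each match, in bases from the annotated start, for the 33 member genes with a promoter window (all listed starts). CHR letters of 23 genes lay between 100 bases before and 50 bases after a start, and 9 genes had none.

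CHR letters were absent from AURKB, CCNA2, CCNB1, CDC25A, CENPE, KIF20A, KIF2C, MELK and PTTG1. Genes with and without these letters had similar medians at day 6. From d0 to RA-labelled arrays the median log2 fold change was -2.53 for the 24 genes with CHR letters and -2.58 for the 9 without. Between Dox-labelled and RA-labelled arrays it was 1.07 with and 0.93 without, and between d0 with Dox and d0 it was 0.17 with and 0.018 without.

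The members were high in both day 0 groups, lowest in RA-labelled day 6 arrays and intermediate in Dox-labelled ones. As a share of its d0 mean, a member's mean intensity was 15.4% (MKI67) to 113% (CDC25B) in Dox-labelled arrays, with a median of 36.5%. In RA-labelled arrays the share was 9.25% (MKI67) to 75.3% (CDC25B), with a median of 16.9%. In d0 with Dox it was 82.4% (CDC25A) to 157% (CDC25B), with a median of 111%. The median member, as log2(intensity + 16) minus its d0 mean, stood at -1.42, -1.38 and -1.57 on the Dox-labelled arrays, -2.49, -2.54 and -2.62 on the RA-labelled arrays, 0.14, 0.18 and 0.17 on the d0 arrays with Dox, and -0.016, -0.018 and 0.035 on the d0 arrays. The 4 groups do not overlap in this median. In these bulk samples fewer dividing cells and less of these RNAs per cell cannot be told apart.

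**Figure D2:**
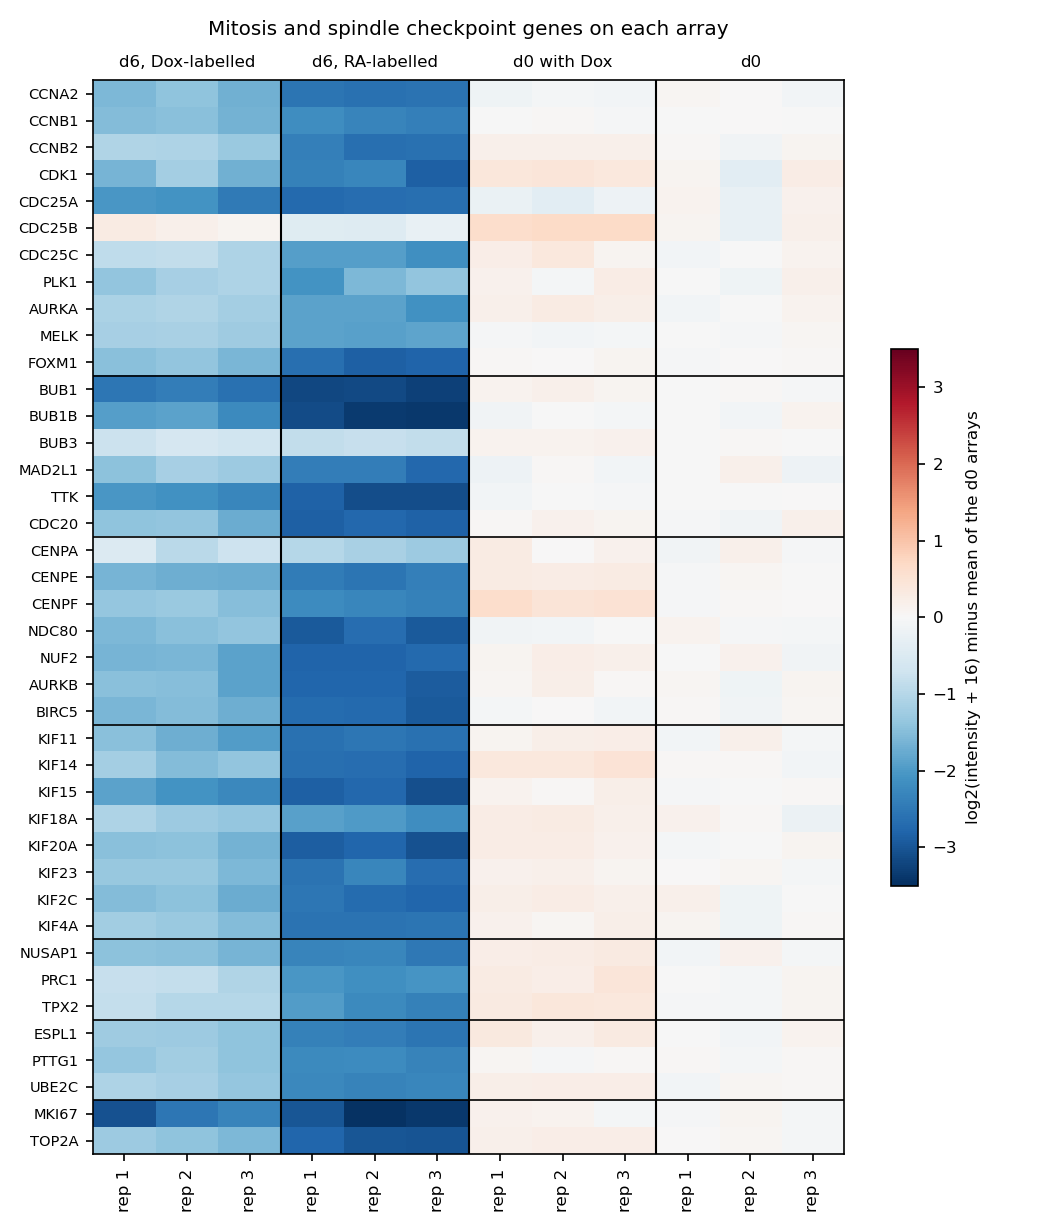
Rows are member genes, columns are arrays, and colour gives log2(intensity + 16) minus the mean of the 3 d0 arrays, with horizontal lines between roles and vertical lines between groups. The RA-labelled columns are darkest blue (medians -2.49 to -2.62), the Dox-labelled ones lighter (-1.38 to -1.57), and both day 0 groups lie near 0.

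Replicates lay close together beside these differences. The coefficient of variation over 3 arrays had a median of 9.02% in Dox-labelled arrays, 8.41% in RA-labelled arrays, 3.74% in d0 with Dox and 7.01% in d0. It was highest for MKI67 in Dox-labelled arrays (27.0%) and PLK1 in RA-labelled arrays (27.5%), which were dim there.

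From d0 to RA-labelled day 6 arrays all 40 members fell, where fell and rose mean an adjusted p under 0.05 in limma's test across all genes. Of all 19775 genes 25.2% fell in that comparison. The fall was at least 2-fold for 38 of 40 members, against 10.6% of all genes, with BUB3 and CDC25B as the exceptions. The median log2 fold change was -2.53, against -0.0071 over all genes.

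The 2 chromosome structure genes had the lowest median (-3.10), followed by the 6 spindle checkpoint genes (-2.91). BUB1B, the BubR1 subunit that binds and inhibits CDC20, had intensities of 821, 710.3 and 692 on the RA-labelled arrays and 7251, 6902 and 8034 on the d0 arrays. It fell by 9.80-fold (log2 fold change -3.29 ± 0.11, SE, limma adjusted p = 5.26e-09), and every RA-labelled array lay far under every d0 array. BUB1, a kinase that marks centromeres and recruits checkpoint proteins, had 575, 579.7 and 536 on the RA-labelled arrays and 5274, 5522 and 5212 on the d0 arrays. It fell by 9.24-fold (-3.21 ± 0.069, adjusted p = 7.6e-10), again without overlap. TTK, the kinase MPS1 that starts checkpoint signalling, had 563, 464 and 465 on the RA-labelled arrays and 4048, 4046 and 4159.8 on the d0 arrays. It fell by 8.03-fold (-3.00 ± 0.090, adjusted p = 3.03e-09). CDC20, the activator of the anaphase-promoting complex that the checkpoint restrains, changed by -2.82 ± 0.11. MAD2L1, which locks onto CDC20, changed by -2.52 ± 0.12. BUB3, a WD40 protein that anchors BUB1 and BUB1B, was apart from them. Its intensities were 3970.2, 4150.2 and 3964 on the RA-labelled arrays and 7126, 7388 and 7102 on the d0 arrays, a fall of only 1.79-fold (-0.84 ± 0.063) without overlap.

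MKI67, the Ki-67 protein that coats mitotic chromosomes and marks cycling cells, had 136, 94.2 and 102 on the RA-labelled arrays and 1156, 1289 and 1148 on the d0 arrays. It fell by 9.66-fold (-3.27 ± 0.18, adjusted p = 1.63e-07). TOP2A, the topoisomerase that untangles sister chromatids, fell by 7.58-fold (-2.92 ± 0.094). Among the 11 regulators of mitotic entry the median was -2.29. FOXM1, a transcription factor of late cell cycle genes, fell most of them (-2.76 ± 0.081). CDC25A (-2.67 ± 0.14), which also belongs to the genes of S phase entry, fell nearly as far. The cyclins CCNA2 (-2.58 ± 0.078), CCNB2 (-2.55 ± 0.098) and CCNB1 (-2.29 ± 0.076) fell with their kinase CDK1 (-2.50 ± 0.20). The mitotic kinases PLK1 (-1.69 ± 0.18), AURKA (-1.96 ± 0.090) and MELK (-1.86 ± 0.059) and the phosphatase CDC25C (-2.00 ± 0.11) fell less. CDC25B, the phosphatase that first activates CDK1 at the centrosome, had 593, 581 and 666 on the RA-labelled arrays and 860.1, 667 and 916 on the d0 arrays. This was the smallest change of all members (-0.39 ± 0.11, adjusted p = 0.016), and its highest RA-labelled array was almost level with the lowest d0 array. That call was lost in 4 of 19 alternative settings, without replicate 2 of the RA-labelled arrays, without replicate 1 or 3 of d0, and on the 6 arrays compared alone.

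At the kinetochore, NDC80 (-2.85 ± 0.096) and NUF2 (-2.78 ± 0.095), partners in the complex that grips microtubules, fell by much the same amount. The chromosomal passenger kinase AURKB (-2.82 ± 0.12) and its partner BIRC5 (-2.79 ± 0.093), also known as survivin, did likewise. The kinetochore motor CENPE (-2.47 ± 0.066) and CENPF (-2.28 ± 0.078) fell less, and CENPA (-1.13 ± 0.13), the centromeric histone, least of the 7. All 8 kinesins fell. KIF20A, the motor MKLP2 of the anaphase midzone, fell most (-2.91 ± 0.090), KIF15 next (-2.89 ± 0.11) and KIF18A, which dampens chromosome movement, least (-2.03 ± 0.11). Between them lay KIF14 (-2.71 ± 0.091), KIF2C (-2.66 ± 0.11), KIF11 (-2.58 ± 0.12), KIF4A (-2.58 ± 0.095) and KIF23 (-2.51 ± 0.11). The spindle proteins NUSAP1 (-2.36 ± 0.093), TPX2 (-2.18 ± 0.10) and PRC1 (-2.08 ± 0.087) fell by more than 4-fold each. So did ESPL1 (-2.45 ± 0.089), the separase that cuts cohesin, its inhibitor PTTG1 (-2.26 ± 0.074), the securin, and UBE2C (-2.29 ± 0.081), the ubiquitin-conjugating enzyme of the anaphase-promoting complex.

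**Figure D3:**
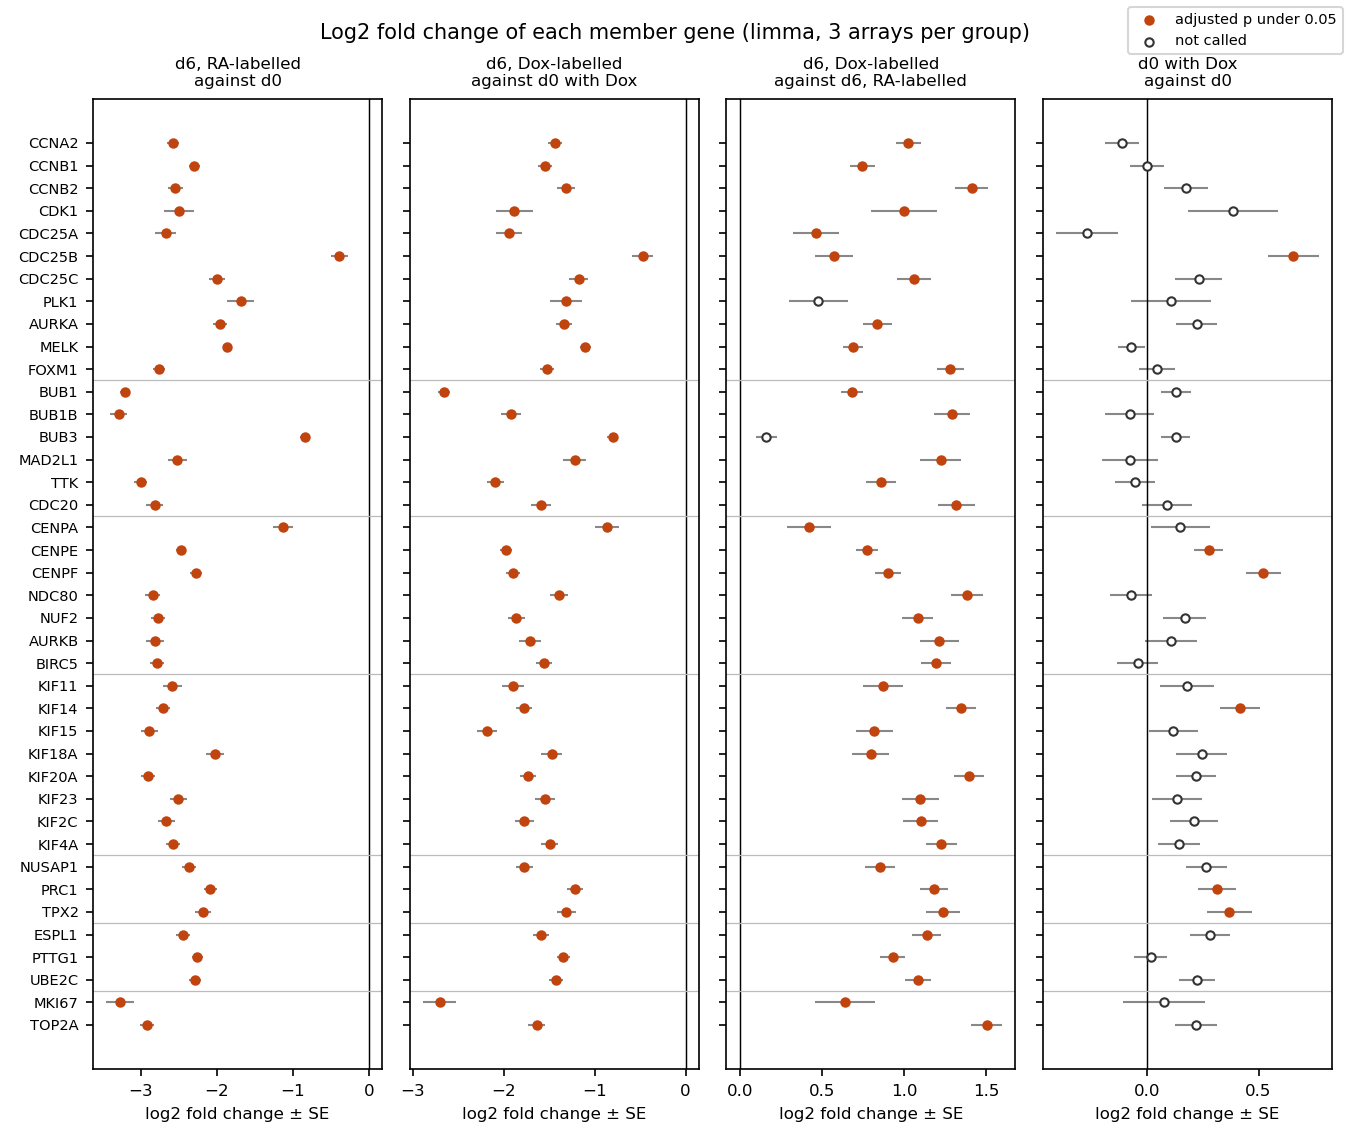
Log2 fold change ± SE of each member in 4 comparisons (limma, 3 arrays per group), with filled points for an adjusted p under 0.05 and horizontal lines between roles. All 40 points lie left of 0 in both comparisons of day 6 with day 0, all lie right of it between the day 6 groups, and 6 are filled in d0 with Dox against d0.

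From d0 with Dox to Dox-labelled day 6 arrays all 40 members fell too, against 23.9% of all genes. The fall was at least 2-fold for 37, against 8.61% of all genes, with CDC25B, BUB3 and CENPA as the exceptions. The median log2 fold change was -1.55, against -0.030 over all genes. MKI67 had 131, 193 and 229 on the Dox-labelled arrays and 1336, 1313 and 1143 on the d0 arrays with Dox, a fall of 6.52-fold (-2.71 ± 0.18, limma adjusted p = 9.68e-07). BUB1 had 904, 978 and 863 on the Dox-labelled arrays and 5862, 5987 and 5677 on the d0 arrays with Dox, a fall of 6.30-fold (-2.66 ± 0.069, adjusted p = 1.57e-09). The groups do not overlap in either gene. KIF15, a kinesin that helps hold the spindle poles apart, had 286, 247 and 219 on the Dox-labelled arrays and 1189, 1132 and 1259 on the d0 arrays with Dox. It fell by 4.55-fold (-2.19 ± 0.11, adjusted p = 1.2e-07). TTK had 984, 923 and 833 on the Dox-labelled arrays and 3804, 4028 and 3982 on the d0 arrays with Dox, and fell by 4.26-fold (-2.09 ± 0.090, adjusted p = 4.18e-08). The smallest falls were those of CDC25B (-0.47 ± 0.11), BUB3 (-0.80 ± 0.063) and CENPA (-0.86 ± 0.13).

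Between the day 6 groups, 38 of 40 members were higher in Dox-labelled than in RA-labelled arrays and none was lower. At an unadjusted p under 0.05 in limma all 40 were higher. Of all genes 13.7% were higher and 12.2% lower. The rise was at least 2-fold for 22 members, against 3.86% of all genes, and the median log2 fold change was 1.04, against 0.00089 over all genes. In 39 members all 3 Dox-labelled arrays lay above all 3 RA-labelled arrays, against 21.5% of all genes. This comparison uses the same day 6 arrays as the ones with day 0, so it is not independent of them.

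TOP2A had 2826, 2581 and 2323 on the Dox-labelled arrays and 1000.1, 858 and 837 on the RA-labelled arrays. It was 2.83-fold higher (1.50 ± 0.094, adjusted p = 2.74e-06), the widest gap of the members. CCNB2, a B-type cyclin, had 2647, 2579 and 2231 on the Dox-labelled arrays and 1035, 866 and 874 on the RA-labelled arrays, and was 2.66-fold higher (1.41 ± 0.098, adjusted p = 5.25e-06). Its other 2 probe sets were dim, and the mean over all 3 gave a log2 fold change of 0.67. KIF20A had 1076, 1086 and 938 on the Dox-labelled arrays and 385, 418 and 347 on the RA-labelled arrays, and was 2.63-fold higher (1.39 ± 0.090, adjusted p = 3.15e-06). NDC80 had 696, 749 and 797 on the Dox-labelled arrays and 256, 317 and 259.9 on the RA-labelled arrays, and was 2.61-fold higher (1.38 ± 0.096, adjusted p = 5.16e-06). In each of these 4 genes the lowest Dox-labelled array was more than 2-fold above the highest RA-labelled one.

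By role, the median log2 fold change was 1.18 for the spindle and midzone genes (3 of 3 higher), 1.10 for the kinesins (8 of 8), 1.08 for the kinetochore and passenger genes (7 of 7), 1.04 for the spindle checkpoint genes (5 of 6) and 0.84 for the regulators of mitotic entry (10 of 11). Within the checkpoint, CDC20 (1.32 ± 0.11), BUB1B (1.29 ± 0.11) and MAD2L1 (1.22 ± 0.12) differed by more than 2-fold, TTK (0.86 ± 0.090) and BUB1 (0.68 ± 0.069) by less. Among mitotic entry genes FOXM1 (1.28 ± 0.081) followed CCNB2, while CDC25A (0.46 ± 0.14, adjusted p = 0.0327) lay near the threshold. CENPA (0.42 ± 0.13, adjusted p = 0.0421) also lay near it. The 2 members that did not pass were BUB3 (0.16 ± 0.063, adjusted p = 0.0913) and PLK1 (0.48 ± 0.18, adjusted p = 0.0769). PLK1, the kinase that drives centrosome maturation and mitotic exit, had 129.6, 153 and 164 on the Dox-labelled arrays and 72.9, 111 and 129 on the RA-labelled arrays, and the lowest Dox-labelled array was almost level with the highest RA-labelled one. MKI67 (0.64 ± 0.18, adjusted p = 0.0275) was called although its groups overlap, since the lowest Dox-labelled array lay under the highest RA-labelled one. The calls of CDC25A, CENPA and MKI67 were lost in 9, 11 and 8 of 19 alternative settings, among them both other array scalings and leaving out replicate 2 of the RA-labelled arrays.

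**Figure D4:**
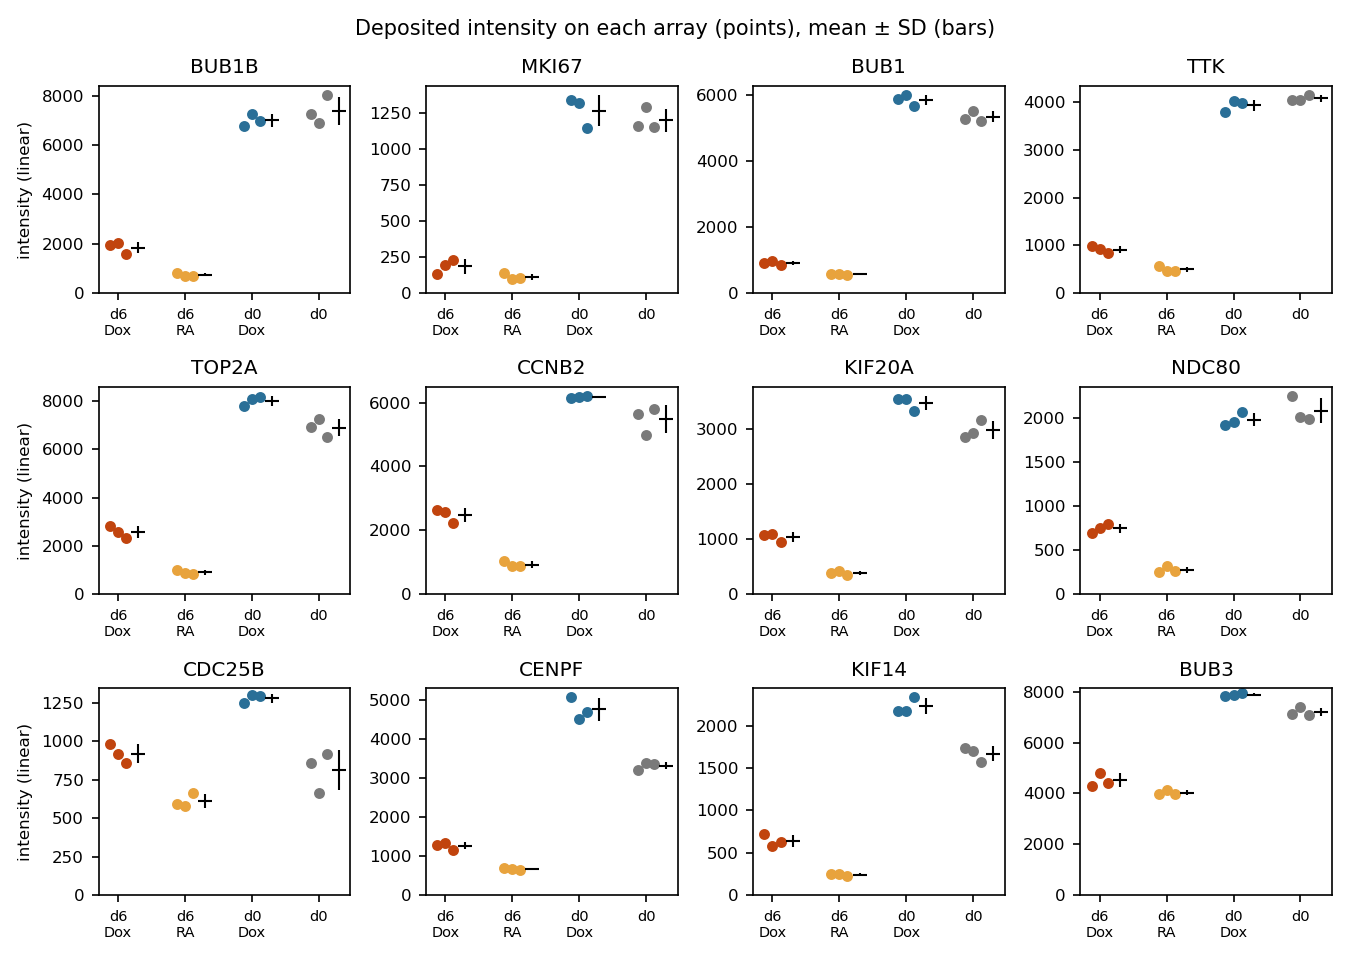
Deposited linear intensity on each array (points, 3 per group) with mean ± SD beside them, for 12 members, each panel on its own axis from 0. In TOP2A, CCNB2, KIF20A and NDC80 the Dox-labelled arrays stand clear above the RA-labelled ones, in BUB3 the day 6 groups nearly meet, and in CDC25B, CENPF and KIF14 the d0 arrays with Dox stand above the d0 arrays.

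In undifferentiated cells few members differed with Dox, and those upward. CDC25B, CENPF, KIF14, TPX2, PRC1 and CENPE rose, 6 of 40 against 7.75% of all genes. None fell, at an adjusted or an unadjusted p under 0.05 in limma, against 5.16% of all genes, and 12 were higher at an unadjusted p under 0.05. The median log2 fold change was 0.15, against 0.025 over all genes, and 32 of 40 values were above 0. In 19 members all 3 arrays with Dox lay above the 3 d0 arrays, against 17.8% of all genes. In 2, MELK and TTK, they all lay below, against 2704 of 19775 genes. The count of 6 depends on single arrays and on scaling. It was 2 without replicate 3 of d0 with Dox, 3 without replicate 1 or 2 of d0 with Dox or without replicate 1 of d0, and 3 with each array centred on its median. RNA quality and stem cell markers also differed between these groups, and their part in the rises was not tested. For ACTB the intensity near the 3' end over that near the 5' end, a ratio that grows as RNA degrades, was 3.86 ± 0.011 in d0 with Dox and 3.24 ± 0.14 in d0 arrays. It was higher in every d0 array with Dox than in every d0 array. The same ratio for GAPDH was 1.62 ± 0.055 in d0 with Dox and 1.53 ± 0.058 in d0. Of the 13 pluripotency markers 5 were lower with Dox and 1 was higher, against 5.16% and 7.75% of all genes.

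CDC25B had 1246, 1300.4 and 1294 on the d0 arrays with Dox and 860.1, 667 and 916 on the d0 arrays. It rose by 1.57-fold (0.66 ± 0.11, adjusted p = 0.00483), and replicate 2 of d0 was low beside the other two. CENPF, a large protein of the nuclear matrix and kinetochore, had 5073, 4494 and 4686 on the d0 arrays with Dox and 3206, 3368 and 3338 on the d0 arrays, and rose by 1.43-fold (0.52 ± 0.078, adjusted p = 0.0021). The mean over its 3 probe sets gave a log2 fold change of 0.33. KIF14, a kinesin of the midbody needed for cytokinesis, had 2179.9, 2178 and 2342 on the d0 arrays with Dox and 1734, 1706 and 1572 on the d0 arrays. It rose by 1.33-fold (0.42 ± 0.091, adjusted p = 0.0144), but its adjusted p was 0.0563 without replicate 3 of d0 with Dox. TPX2, which activates AURKA on the spindle, had 2739, 2883 and 2845 on the d0 arrays with Dox and 2138, 2092 and 2318 on the d0 arrays, and rose by 1.29-fold (0.37 ± 0.10, adjusted p = 0.0419). That call was lost in 14 of 19 alternative settings, with an adjusted p of 0.00967 to 0.114 over all of them. None of these 4 genes had overlapping groups. PRC1, the crosslinker of midzone microtubules, changed by 0.31 ± 0.087 (adjusted p = 0.0415) and CENPE by 0.28 ± 0.066 (adjusted p = 0.0225), calls that were lost in 14 settings for PRC1 and 7 for CENPE, in both whichever replicate of d0 with Dox was left out. On the probe sets used here no spindle checkpoint gene passed in limma, at an adjusted or an unadjusted p under 0.05, and their values ran from -0.076 (BUB1B) to 0.13 (BUB1).

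The difference between Dox-labelled and RA-labelled arrays was larger than that between d0 with Dox and d0 in 34 of 40 members by the test of the difference between differences in limma, and smaller in none, also at an unadjusted p under 0.05. Of all genes 11.7% were called larger and 12.5% smaller. The median was 0.86 on the log2 scale. NDC80 stood highest (1.45 ± 0.14), then BUB1B (1.37 ± 0.15) and MAD2L1 (1.30 ± 0.18). CDK1, CDC25B, PLK1, BUB3, CENPA and MKI67 did not pass, from -0.081 ± 0.16 for CDC25B to 0.62 ± 0.28 for CDK1. The day 6 arrays without Dox are labelled RA, so the contrasts are not matched. The direction also rests on the day 6 labels. With these exchanged, a setting added after the data were seen, 36 members were called smaller (39 at an unadjusted p under 0.05) and none larger at either p, against 11.0% of all genes called smaller, and the median was -1.22.

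Most other probe sets of the same genes were lower at day 6 than at day 0. The 40 members had 80 probe sets, 20 of them 1 each and BUB3 the most with 6. Tested over all 54675 probe sets, 74 of the 80 were lower in RA-labelled arrays than in d0 and none higher, against 20.4% of all probe sets lower, and 73 were lower in Dox-labelled arrays than in d0 with Dox and none higher, against 19.9% lower. Between Dox-labelled and RA-labelled arrays 59 were higher and none lower, against 7.69% of all probe sets higher, and between d0 with Dox and d0 8 were higher and none lower, against 3.31% higher. Of the 40 probe sets not used elsewhere here, 34 and 33 were lower in the comparisons with day 0, 23 were higher in Dox-labelled than in RA-labelled arrays and 5 higher in d0 with Dox than in d0. In the difference of differences 44 of the 80 were called larger, against 6.38% of all probe sets, and 12 of the other 40, with none smaller. At an unadjusted p under 0.05 in limma 56 were larger there and 2 smaller, both of BUB1 (-0.62 and -0.83). At an unadjusted p under 0.05 in limma, 74 were lower in RA-labelled arrays than in d0, 73 lower in Dox-labelled arrays than in d0 with Dox, 68 higher in Dox-labelled than in RA-labelled arrays and 19 higher in d0 with Dox than in d0, with none the other way in any of the 4. No gene had probe sets called in opposite directions. The mean over a gene's probe sets gave smaller falls for BUB1, -2.20 in RA-labelled arrays against d0 and -1.92 in Dox-labelled arrays against d0 with Dox, and for MKI67, -2.54 and -2.03. MKI67 was read by 4 probe sets, one of which gave 0.95 between Dox-labelled and RA-labelled arrays and rose with Dox at d0 (0.45, adjusted p = 0.0389). The same 2 dim probe sets of BUB1 rose with Dox at d0 (0.77, adjusted p = 0.0319, and 0.86, adjusted p = 0.039). For ESPL1 a second probe set rose with Dox at d0 (0.58, adjusted p = 0.00654), while the one used here did not pass (0.28 ± 0.089, adjusted p = 0.0684).

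Other mitotic genes moved mostly in the same directions as the members. Of 71 measured, 54 were higher in Dox-labelled than in RA-labelled arrays and none lower (58 and 2 at an unadjusted p under 0.05), with a median log2 fold change of 0.68. Of all genes 13.7% were higher and 12.2% lower there. NEK2, a centrosome kinase (1.62 ± 0.12), and CENPH, of the inner kinetochore (1.59 ± 0.19), differed most. From d0 to RA-labelled arrays 68 fell (median -2.09) and 1 rose, against 25.2% and 25.3% of all genes. Among those that fell were ASPM, a spindle pole protein (-3.35 ± 0.091), and the condensin subunit NCAPH (-3.16 ± 0.18). The 1 that rose was the spindle pole protein NUMA1 (0.47 ± 0.13). From d0 with Dox to Dox-labelled arrays 68 fell and none rose (1 at an unadjusted p under 0.05), with a median of -1.45. Of all genes 23.9% fell there. At d0, 6 of the 71 rose and 2 fell with Dox, against 7.75% and 5.16% of all genes. NUMA1 (0.62 ± 0.13) and CKAP2 (0.60 ± 0.070), both spindle proteins, rose most, and the checkpoint proteins ZWILCH (-0.36 ± 0.068) and TRIP13 (-0.32 ± 0.071) fell.

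**Figure D5:**
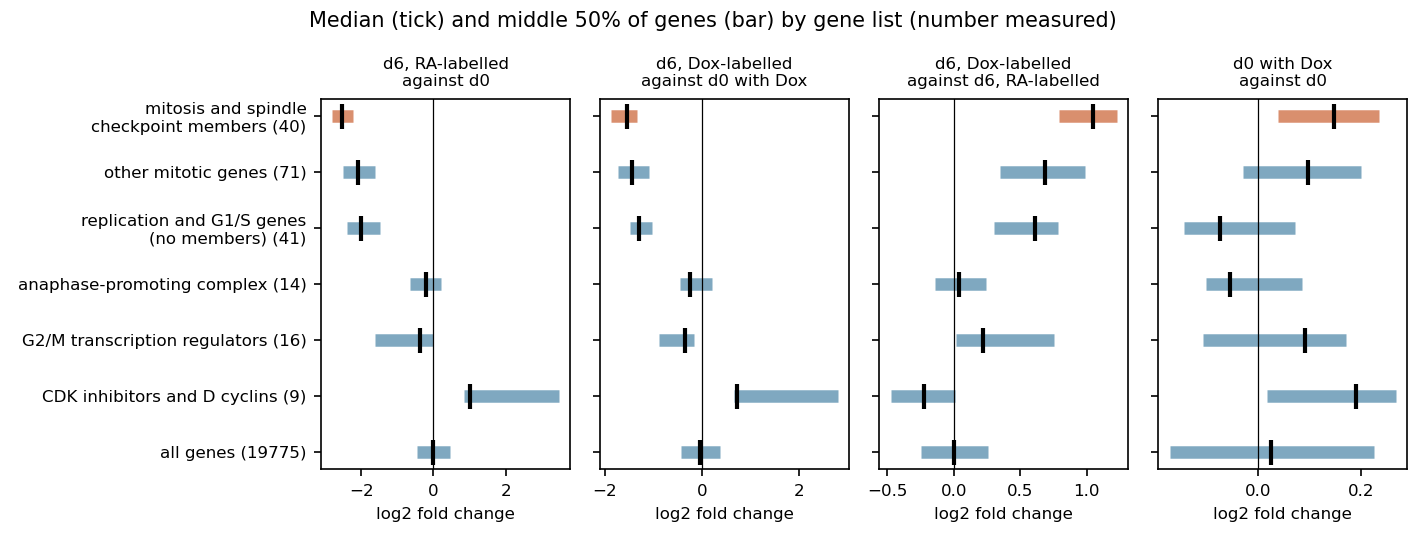
Median (tick) and middle 50% of genes (bar) of the log2 fold change, for the members, 5 other gene lists and all genes, in 4 comparisons, with the number of genes measured in brackets. The members have the lowest median in both comparisons of day 6 with day 0 (-2.53 and -1.55) and the highest between the day 6 groups (1.04), and the median of the anaphase-promoting complex stays nearer 0 than that of the members.

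Genes of DNA replication and S phase entry, without CDC25A, shared the fall at day 6. Of 41 measured, 39 fell and 2 rose from d0 to RA-labelled arrays (median -2.02), against 25.2% and 25.3% of all genes. From d0 with Dox to Dox-labelled arrays 38 fell and 2 rose (median -1.31), against 23.9% and 22.2% of all genes. MCM5, of the replicative helicase, fell most (-3.36 ± 0.10) and the clamp loader subunit RFC5 rose (0.24 ± 0.074) in RA-labelled arrays. Between the day 6 groups 29 were higher in Dox-labelled arrays and none lower, against 13.7% and 12.2% of all genes. The median there was 0.61, and E2F1 (1.24 ± 0.16) and MCM2 (1.22 ± 0.094) led. With CDC25A, 32 were higher and 2 lower there at an unadjusted p under 0.05. At d0 the median was -0.074, with 2 higher and 3 lower, against 7.75% and 5.16% of all genes. CDC6, which loads the helicase, fell with Dox (-0.56 ± 0.10).

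The anaphase-promoting complex and its partners had medians nearer 0 than the members at day 6. Of 14 measured, 7 fell and 2 rose from d0 to RA-labelled arrays, against 25.2% and 25.3% of all genes, with a median of -0.22. Its inhibitor FBXO5 (-2.64 ± 0.13) and its enzyme UBE2S (-1.24 ± 0.070) fell, and the subunit ANAPC13 rose (0.84 ± 0.067). From d0 with Dox to Dox-labelled arrays 5 fell and 3 rose, against 23.9% and 22.2% of all genes, with a median of -0.25. With Dox at d0 none passed, and 1 was lower at an unadjusted p under 0.05. Among 16 regulators of late cell cycle transcription, 10 fell and 3 rose from d0 to RA-labelled arrays, against 25.2% and 25.3% of all genes. The repressor E2F8 (-3.47 ± 0.20) and MYBL2, which encodes B-MYB (-1.93 ± 0.17), fell, and the MuvB subunit LIN37 (1.01 ± 0.11) and the DREAM pocket protein RBL2 (0.53 ± 0.14) rose. From d0 with Dox to Dox-labelled arrays 11 fell and 2 rose, against 23.9% and 22.2% of all genes. Those that rose were LIN37 (0.58 ± 0.11) and NFYC (0.32 ± 0.075), and not RBL2. The pocket protein RBL1 fell most there (-1.46 ± 0.13). Between the day 6 groups 7 were higher in Dox-labelled arrays and none lower (8 and 1 at an unadjusted p under 0.05). Of all genes 13.7% were higher and 12.2% lower there. E2F8 was higher by 1.81 ± 0.20. With Dox at d0 none passed, and 4 were higher at an unadjusted p under 0.05.

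Most CDK inhibitors and D cyclins moved the other way at day 6. Of 9 measured, 8 rose and 1 fell from d0 to RA-labelled arrays, against 25.3% and 25.2% of all genes. From d0 with Dox to Dox-labelled arrays 7 rose and 2 fell, against 22.2% and 23.9% of all genes. The inhibitor CDKN1B fell in both comparisons (-0.35 ± 0.10 and -0.55 ± 0.10), and CDKN1C fell in the second (-1.04 ± 0.097). CDKN2B, the CDK4 and CDK6 inhibitor p15, rose 23.3-fold in RA-labelled arrays against d0 (4.54 ± 0.11) and 42.0-fold in Dox-labelled arrays against d0 with Dox (5.39 ± 0.11). CDKN2A, of p16, rose 12.9-fold and 17.7-fold in the same comparisons. Between the day 6 groups 2 were lower in Dox-labelled arrays and none was higher (1 at an unadjusted p under 0.05). Of all genes 12.2% were lower and 13.7% higher there. The 2 were the inhibitor CDKN1C, of p57 (-0.90 ± 0.097), and the cyclin CCND3 (-0.85 ± 0.091). At d0 CDKN1C was higher with Dox (0.99 ± 0.097) and CDKN2B lower (-0.87 ± 0.11).

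Some markers of other cell types, and RNA quality, moved with the day 6 groups, and their part in the day 6 results was not tested. All 13 pluripotency markers fell in both comparisons of day 6 with day 0, against 25.2% and 23.9% of all genes. Between the day 6 groups 3 were higher and 6 lower in Dox-labelled arrays, against 13.7% and 12.2% of all genes. Of 12 mesenchymal markers, 10 rose and 1 fell from d0 to RA-labelled arrays, against 25.3% and 25.2% of all genes. Of the 12, 5 were higher and 2 lower in Dox-labelled than in RA-labelled arrays. Their summed intensity was 124539 to 128093 in Dox-labelled and 103516 to 115738 in RA-labelled arrays. At day 0 it was 39428 to 40522 in d0 with Dox and 38685 to 40136 in d0. POSTN averaged 10845 in Dox-labelled and 1042 in RA-labelled arrays. The 2 lower ones were PDGFRB (771 and 1526) and THY1 (1171 and 2042). The summed intensity of 7 endoderm markers was 9889.9 to 12149 in Dox-labelled and 2738 to 5730.2 in RA-labelled arrays, against 894 to 1016 in d0 with Dox and 675 to 840.4 in d0. That of 7 trophoblast markers was 12199 to 12971 in Dox-labelled and 5323 to 5772 in RA-labelled arrays, against 1728 to 1775 in d0 with Dox and 885 to 1062 in d0, with 2 of the 7 under a mean of 16 in every group. For 8 neural markers the sums were 16395.5 to 16753 in Dox-labelled, 16506 to 17244 in RA-labelled, 14081 to 14210.4 in d0 with Dox and 13241 to 14853 in d0 arrays. For 6 endothelial markers they were 1591 to 1743 in Dox-labelled, 1960.01 to 2092 in RA-labelled, 2203 to 2707 in d0 with Dox and 2539 to 2569 in d0 arrays. Between the day 6 groups 1 endoderm marker was higher and none lower (2 and 0 at an unadjusted p under 0.05 in limma). For trophoblast markers 3 were higher and 1 lower, for neural markers 2 and 1, and for endothelial markers 1 and 1. Of all genes 13.7% were higher and 12.2% lower there. A count of 1 among 7 endoderm or 6 endothelial markers is near that share. The endoderm marker called was GATA6, which averaged 8032 in Dox-labelled and 1580 in RA-labelled arrays and made up most of the Dox-labelled sum. AFP averaged 1429 and 1517, and of the 7 endoderm markers 5 had log2 fold changes above 0 and 2 below. The ACTB ratio was 2.33 ± 0.058 in Dox-labelled and 2.59 ± 0.29 in RA-labelled arrays, both lower than at day 0, while the GAPDH ratio was 1.46 ± 0.023 in Dox-labelled and 1.35 ± 0.082 in RA-labelled arrays.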

How the data were processed

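The 12 samples were read on Affymetrix arrays, and groups and replicate numbers come from the sample titles. Each value the authors deposited is an intensity per probe set on a linear scale. Their background correction, probe summary and array scaling are not given in the sources used here. With 2% of probe sets trimmed from either end, every array had a mean of 500.1, so levels are relative to the rest of an array. Of 54675 probe sets, 41097 had a single gene symbol, 1801 several, and 11777 were not listed in the platform annotation. For 41043 of those with a single symbol, the current symbol was looked up through the gene ID, whether or not it differed. Each gene was read from its brightest probe set by mean log2 value.

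Tests used log2(intensity + 16), a scale on which changes of dim genes come out too small, with lmFit and eBayes of limma 3.58.1 (R 4.3.3) on all 12 arrays (8 residual degrees of freedom), and Benjamini-Hochberg adjustment over 19775 genes. Folds are antilogs of differences on that scale. The procedure was tested on simulated data. Deviations of same-numbered arrays from their group means correlated at -0.0084 to 0.048 over all genes, and the arrays were tested as unpaired. These correlations cannot show whether same-numbered cultures were handled together. Alternatives were quantile normalization, median centring, a pseudocount of 1, probe sets averaged per gene, genes at or above the median mean, only the 6 arrays compared, a block for the replicate number, leaving out each array and, added after the data were seen, the day 6 labels exchanged.

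The members and gene lists were chosen with earlier results of these data known. Full values are given for the 4 largest rises and falls per comparison among called members, and for other lists up to 2 of each, and other members are named with their fold change. Promoters were searched with Python 3.11.15 and pandas 2.3.3. Array batches were not analysed here.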

Additional observations from a re-analysis of the deposited data

Results flagged for a closer look

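The gap between Dox-labelled and RA-labelled day 6 arrays exceeded the gap between d0 with Dox and d0 in 34 of 40 members, by limma's test of the difference itself. On the log2 scale the excess was 1.45 for NDC80, 1.29 for TOP2A, 1.23 for CCNB2, 1.18 for KIF20A, 0.93 for KIF14, 0.87 for TPX2 and 0.38 for CENPF. The day 6 arrays set against Dox are labelled RA and the day 0 ones had no agent, so the gaps are not matched. The day 6 labels are in doubt, and with them exchanged 36 members were called smaller and none larger.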

How the results depend on the processing

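Every member count in the comparisons of day 6 with day 0 and between the day 6 groups stayed within 1.5 times under 19 alternatives. These 19 do not include the exchange of the day 6 labels. With median centring the members higher in d0 with Dox than in d0 numbered 3, against 6, and the median log2 fold changes were 0.081 for d0 with Dox against d0 and 0.96 for Dox-labelled against RA-labelled arrays. With probe sets averaged per gene the median was 0.86 between Dox-labelled and RA-labelled arrays and -2.47 from d0 to RA-labelled arrays. Leaving out each array in turn gave 2 to 5 members higher in d0 with Dox than in d0, 35 to 38 higher in Dox-labelled than in RA-labelled arrays and 39 to 40 lower in RA-labelled arrays than in d0. The median between Dox-labelled and RA-labelled arrays was then 0.99 to 1.11, and that from d0 with Dox to Dox-labelled arrays -1.60 to -1.48, with 31 to 34 members in the difference of differences. On the 6 arrays of d0 with Dox and d0 alone, 1522 of all genes were called, against 2552. With the replicate block 4 members were higher in d0 with Dox than in d0 and 36 in Dox-labelled than in RA-labelled arrays. The calls lost at d0 were those of TPX2 (limma adjusted p = 0.0618) and PRC1 (0.0685). Between the day 6 groups those of CDC25A (0.0524), CENPA (0.0528) and MKI67 (0.0566) were lost. The 36 thus include a member that was not called without the block. Over all 19 alternatives, 40 of 40 calls held from d0 with Dox to Dox-labelled arrays, 39 of 40 from d0 to RA-labelled arrays, 35 of 38 between the day 6 groups and 2 of 6 at d0 (CDC25B and CENPF). None of these calls turned. With the day 6 labels exchanged, which was chosen after seeing the data, the direction between the day 6 groups turns by definition. The difference of differences, with 36 members called smaller, turned through the same exchange and is not a separate result. Low signal limits MKI67 and PLK1 at day 6. The cause was not tested.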
